A study of Danio rerio with 24 samples.

Results

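The 8 libraries described here are the DMSO controls of a zebrafish RNA-Seq time course of 24 libraries, 4 from embryos at 16 somites and 4 from embryos at 10 somites. They were chosen by their labels alone, and together they record what changed in whole control embryos over a short stretch of somitogenesis. The embryos carried the Tg(snail1b:GFP) transgene, were placed in DMSO, the drug's solvent, from 13 hpf (hours post fertilization; 8 somites) and were collected after 4 h at 17 hpf (16 somites) or after 1 h at 14 hpf (10 somites), with 35 whole embryos pooled in each library. Both groups therefore share the transgene and the solvent, and the difference in stage cannot be told apart from the longer time in DMSO. Each library mixes all tissues, so that fewer cells of a type and less RNA per cell cannot be told apart in any value below. The sources describe 4 biological replicates per condition.

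At these stages the paraxial mesoderm is being cut into somites, blocks of tissue that bud from the presomitic mesoderm under the control of an oscillating Notch-dependent clock, while progenitors in the tailbud extend the body axis. Cells of the older somites express the myogenic factors and then assemble sarcomeres, the contractile units of muscle. Over the same hours the first neurons extend axons, the optic vesicles and brain vesicles are patterned, and the intermediate and lateral mesoderm yields pronephros, primitive blood, vessels and the heart field.

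Reads falling on genes totalled between 7465181 and 10582470 in the 16-somite libraries and between 3879310 and 7663030 in the 10-somite libraries (exact two-sided permutation test, p = 0.0571, where 0.0286 is the smallest p that 4 against 4 allows). The first principal component of log2 CPM (counts per gene scaled to the library's total and by TMM, edgeR's correction for library composition) held 52.3% of the variance and separated the stages. Along it, 16-somite replicates 1 and 2 lay at 47.2 and 48.5, and replicates 3 and 4 at 28.6 and 33.6. The second component held 28.1% and set 10-somite replicate 4 apart, at 71.8 against -27.4 to 6.6 in the other 7 libraries. Its correlation with the other 10-somite libraries was 0.936 to 0.947 (Pearson, log2 CPM over genes), against 0.98 to 0.986 among those 3. Ribosomal protein genes averaged 9.68 in this library and 8.84 to 8.91 in the other 3 on a log2(CPM + 1) scale, and mitosis genes averaged 6.5 against 6.19 to 6.21. Genes of the p53 response averaged 6.73 against 4.84, 5.28 and 5.74, so the other 3 were also spread on that list. No pair of libraries agreed within sampling noise, so each was counted as 1 sample.

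**Figure D1:**
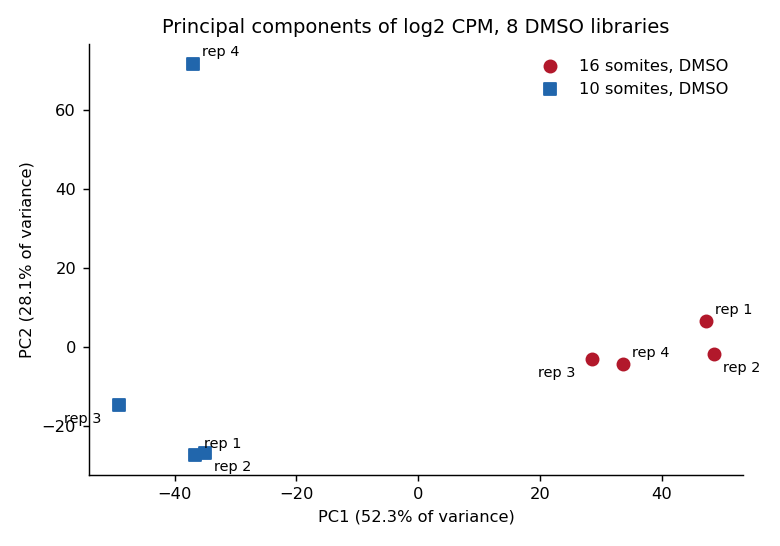
Principal components of log2 CPM over the 8 DMSO libraries, with PC1 (52.3% of the variance) on the x axis, PC2 (28.1%) on the y axis and 1 point per library (red circles 16 somites, blue squares 10 somites). PC1 separates the stages, and 10-somite replicate 4 lies alone at the top, at 71.8 on PC2. At 16 somites, replicates 1 and 2 lie further right on PC1 than replicates 3 and 4.

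Of 15948 genes tested, 3042 differed between the stages at an adjusted p under 0.05 (edgeR's quasi-likelihood test with Benjamini-Hochberg adjustment), of which 1723 were higher at 16 somites (10.8% of genes tested) and 1319 were lower (8.27%). The gains were larger than the losses. Among the higher genes the median log2 fold change was 1.06, and 283 reached at least 2. Among the lower genes the median was -0.65, and 16 reached -2 or less. Over all genes the median was -0.03. Without 10-somite replicate 4, the library that stood apart, edgeR called 3917 genes higher (24.3%) and 3710 lower (23.0%) out of 16115, and DESeq2 called 6592. Of the 3042 genes, 99.9% were called in the same direction without that library. The number of calls moved by over 1.5 times when 10-somite replicate 3 (1720 calls), 16-somite replicate 1 (1817) or 16-somite replicate 2 (1898) was left out. With the adjusted p and an absolute log2 fold change of at least 1 both required, 922 genes were higher and 299 lower.

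Genes of the contractile apparatus had the highest share of rising members among 43 gene lists in the fit of all 8 libraries. Without 10-somite replicate 4 the share was 89.6%, below those of ribosomal proteins (96.2%) and the respiratory chain (91.3%). Of 48 tested genes of the sarcomere and its filaments, 38 were higher at 16 somites (79.2%, where 10.8% of all genes were), 1 was lower and 9 did not pass. Their median log2 fold change was 1.56. The gene of the fast muscle myosin light chain myl1 had 44.2, 41.5, 26.2 and 31.2 CPM in 16-somite replicates 1 to 4, against 0.746, 0.373, 0.656 and 1.04 CPM in 10-somite replicates 1 to 4. The lowest 16-somite library lay far above the highest 10-somite one, and the log2 fold change was 5.76 ± 0.31 (SE; edgeR adjusted p = 3.75e-05). The regulatory light chain mylpfa rose likewise, with 37.9, 53.3, 13.6 and 21.5 CPM at 16 somites, against 1.49, 1.37, 0.437 and 0.521 CPM at 10 somites (log2 fold change 4.93 ± 0.56, edgeR adjusted p = 0.000423).

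Sarcomeric actins and the slow myosin were already expressed at 10 somites and climbed from that level. The actin gene actc1b had 462, 411, 229 and 244 CPM at 16 somites, against 49.2, 34.2, 27.3 and 58.6 CPM at 10 somites, a log2 fold change of 3.0 ± 0.3 (edgeR adjusted p = 0.000239) with no overlap. smyhc1, the myosin heavy chain of slow fibres, had 924, 843, 605 and 706 CPM at 16 somites, against 197, 214, 151 and 226 CPM at 10 somites, a log2 fold change of 1.97 ± 0.17 (edgeR adjusted p = 9.98e-05). Its level was high at both stages, and it was among the 10 called genes with the largest gain in mean CPM. Per length, the gene of the regulatory light chain myl10 led the list, with a mean of 299 FPKM (reads scaled by gene length and library total) at 16 somites and 87.8 FPKM at 10 somites. Replicate 4 held 517 of its 1107 reads at 10 somites, and without that library the log2 fold change of myl10 was 2.53 in place of 1.78. actc1b followed with 256 FPKM at 16 somites and 33.1 FPKM at 10 somites.

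The myosin heavy chain gene myhz1.3 had no read in any 10-somite library and 30.9, 25.1, 6.1 and 7.58 CPM in the 16-somite libraries. With reads pooled over each group, it was at least 107-fold higher against a floor of 3 reads over the group. It belongs to a tandem cluster of near-identical myosin genes between which short reads may be split, so that its share of the cluster is uncertain. Slow troponin C, tnnc1b, had 13.0, 12.8, 6.1 and 5.19 CPM at 16 somites and at most 0.521 CPM at 10 somites (log2 fold change 5.41 ± 0.65, edgeR adjusted p = 0.000557). With 4 reads in all at 10 somites, the log2 fold change of tnnc1b was 6.05 without 10-somite replicate 4 and 4.75 without replicate 2. The titins ttna and ttnb, giant proteins that span the sarcomere, were high at both stages. ttna had 5060, 5800, 4330 and 4540 CPM at 16 somites, against 3330, 3510, 2950 and 1110 CPM at 10 somites. The groups did not overlap, yet the log2 fold change of 0.86 ± 0.3 did not pass (edgeR adjusted p = 0.0684), and without 10-somite replicate 4 it was 0.6 with an adjusted p of 0.000229. tnnt3b, a fast skeletal troponin T, was the single member that fell. It had 3.92, 3.16, 4.57 and 4.65 CPM at 16 somites, against 18.2, 12.2, 13.6 and 2.86 CPM at 10 somites, where replicate 4 lay below all 16-somite libraries (log2 fold change -1.51 ± 0.39, edgeR adjusted p = 0.0234).

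Genes that couple excitation to contraction moved with the sarcomere. Among 28 tested genes of muscle calcium handling, the neuromuscular junction and muscle energy supply, 21 were higher (75.0%, where 10.8% of all genes were). Of the rest 1 was lower, and the median log2 fold change of the list was 1.85. atp2a1, the calcium pump that refills the sarcoplasmic reticulum, had 248, 281, 115 and 122 CPM at 16 somites, against 2.24, 3.98, 2.4 and 2.6 CPM at 10 somites. With a log2 fold change of 6.02 ± 0.39 (edgeR adjusted p = 4.53e-05), it showed one of the 5 largest fold changes among called genes with a mean of at least 5 CPM and no overlap. Replicates 1 and 2 at 16 somites were about equally high and lay above replicates 3 and 4, an order seen in 52 of the 59 genes that rose in the sarcomere and excitation lists. The order was not limited to muscle genes, and the 16-somite libraries lay in the same order on the first principal component. It also held for sptb, hbbe3, cdh5 and col1a1a, and did not hold for mafa and dlx2a. Its share over all rising genes was not counted. The ryanodine receptor ryr1b, which releases calcium from the sarcoplasmic reticulum, had 66.0, 77.4, 47.1 and 50.5 CPM at 16 somites, against 15.7, 18.4, 10.5 and 2.6 CPM at 10 somites (log2 fold change 2.3 ± 0.38, edgeR adjusted p = 0.00284). Muscle creatine kinases ckmb and ckma rose by log2 fold changes of 4.94 ± 0.4 and 3.81 ± 0.42, and the acetylcholine receptor subunit chrna1 by 2.42 ± 0.29, each with an edgeR adjusted p under 0.05. The member that fell was dok7 (log2 fold change -0.49), which encodes an activator of the receptor kinase musk, and musk itself rose by 0.63.

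Myogenic transcription factors changed less as a group, with 7 of 21 higher (33.3%, where 10.8% of all genes were), 1 lower and a median log2 fold change of 0.43. myog, which drives terminal differentiation, had 91.3, 90.4, 61.5 and 72.3 CPM at 16 somites, against 11.2, 9.83, 7.43 and 12.2 CPM at 10 somites (log2 fold change 2.96 ± 0.19, edgeR adjusted p = 4.35e-05). The specification factor myod1 rose by less, to 102, 82.5, 95.3 and 109 CPM at 16 somites, against 55.0, 57.2, 53.1 and 74.7 CPM at 10 somites (log2 fold change 0.7 ± 0.14, edgeR adjusted p = 0.00631). myf5, expressed earlier in the paraxial mesoderm, did not pass, with 47.6, 36.5, 47.4 and 43.8 CPM at 16 somites, against 46.3, 47.3, 44.2 and 96.6 CPM at 10 somites. Only replicate 4 at 10 somites lay outside the common range. mef2ca, a cofactor of the myogenic factors, rose by 1.42 ± 0.22 on the log2 scale, and lbx2, a homeobox gene of the Lbx family, fell by 0.92 (SE 0.22), both with an edgeR adjusted p under 0.05.

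In the list of myoblast fusion and adhesion 3 of 11 genes were higher (27.3%, where 10.8% of all genes were) and 1 lower, with a median log2 fold change of 0.1. Without 10-somite replicate 4 the share was again 27.3%, where 24.3% of all genes were higher. tmem8c, which encodes the fusion protein Myomaker, had 16.3, 16.5, 7.24 and 7.14 CPM at 16 somites, against 0.497, 0.622, 0.219 and 0.781 CPM at 10 somites (log2 fold change 4.4 ± 0.5, edgeR adjusted p = 0.000423). The adhesion receptor jam2a rose by 2.04 ± 0.21, while its partner jam3b gave 0.1 ± 0.09 and did not pass. Of 10 myosin chaperones and related factors, 7 were higher and 1 lower. The muscle chaperone hsp90aa1.1 had 533, 454, 404 and 442 CPM at 16 somites, against 172, 138, 119 and 267 CPM at 10 somites (log2 fold change 1.4 ± 0.23, edgeR adjusted p = 0.00245). hspb1, a small heat shock protein, went the other way, with 178, 130, 191 and 197 CPM at 16 somites, against 360, 298, 442 and 1100 CPM at 10 somites (log2 fold change -1.66 ± 0.37, edgeR adjusted p = 0.0122). Replicate 4 was far above the other 10-somite libraries, and without it the log2 fold change of hspb1 was -1.07.

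**Figure D2:**
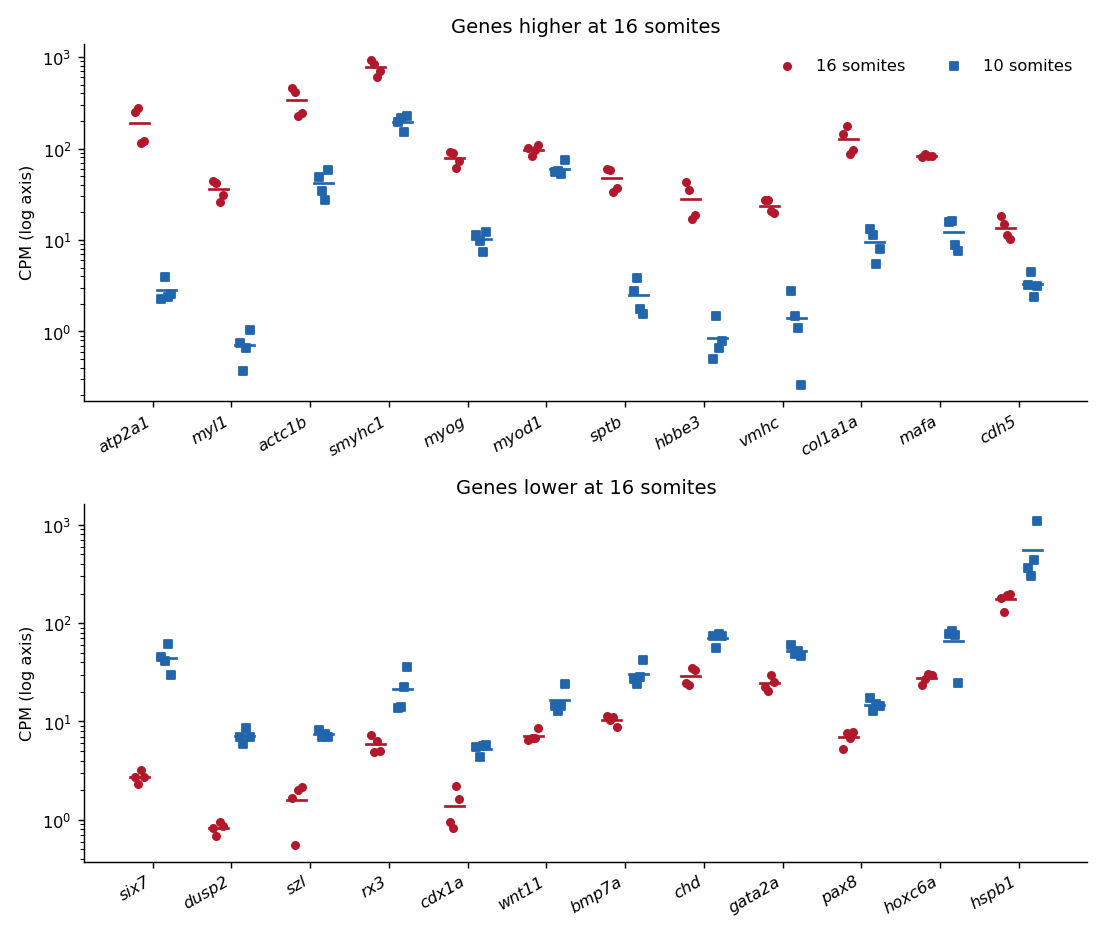
CPM on a log axis in each DMSO library for 12 genes higher (top) and 12 genes lower (bottom) at 16 somites, with red circles for 16 somites, blue squares for 10 somites and a bar at each group's mean of 4 libraries. The groups are apart for each gene but hoxc6a, where 10-somite replicate 4 (24.7 CPM) lies among the 16-somite libraries.

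Many genes of the tailbud and of the gastrula were lower at 16 somites. Of 27 tested tailbud progenitor genes, 12 were lower (44.4%, where 8.27% of all genes were) and 1 was higher, with a median log2 fold change of -0.57. Without 10-somite replicate 4, 17 were lower (63.0%, where 23.0% of all genes were). The lists were assembled with earlier results of these data known, so their direction is not independent evidence. The caudal homeobox gene cdx1a had 0.951, 0.824, 2.19 and 1.62 CPM at 16 somites, against 5.47, 4.35, 5.68 and 5.73 CPM at 10 somites (log2 fold change -1.84 ± 0.3, edgeR adjusted p = 0.00241). vent, a BMP-dependent homeobox repressor, had 18.8, 17.4, 24.5 and 20.7 CPM at 16 somites, against 58.2, 50.4, 55.7 and 69.8 CPM at 10 somites (log2 fold change -1.52 ± 0.14, edgeR adjusted p = 0.000155). Every 16-somite library lay below every 10-somite library for both genes.

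The posterior Wnt ligand gene wnt8a is listed under 2 identifiers, which gave log2 fold changes of -1.36 ± 0.14 and -1.5 ± 0.18. Reads could be shared between them, so they are not separate evidence. Both are nonetheless counted in the tailbud list above and in the blastula and gastrula list below. T-box genes that specify presomitic mesoderm fell as well. tbx6l had 34.7, 33.2, 50.1 and 48.3 CPM at 16 somites, against 84.1, 80.5, 84.6 and 77.3 CPM at 10 somites (log2 fold change -0.97 ± 0.15, edgeR adjusted p = 0.00174). tbx16 fell by 0.66 (SE 0.17; edgeR adjusted p = 0.0208), and msgn1, a direct regulator of the same tissue, gave -0.42 ± 0.28 and did not pass. The brachyury gene ntla, which maintains axial and tailbud progenitors, also did not pass, with 65.2, 53.4, 67.0 and 74.9 CPM at 16 somites, against 71.4, 71.9, 73.9 and 123 CPM at 10 somites. The single tailbud gene that rose was evx1, a homeobox gene also expressed in spinal interneurons, at 5.47, 6.59, 4.96 and 5.09 CPM at 16 somites and 3.23, 2.86, 1.97 and 1.56 CPM at 10 somites (log2 fold change 1.15 ± 0.24, edgeR adjusted p = 0.00818).

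In the clock and Notch list 5 of 25 genes were lower, where 8.27% of all genes were, and 1 was higher, where 10.8% were. The median log2 fold change was -0.08, near the -0.03 over all genes, so the list as a whole hardly shifted. Without 10-somite replicate 4, 8 of 25 were lower and 3 higher, where 23.0% and 24.3% of all genes were. Oscillating genes are averaged over 35 embryos in each library, so phase is not visible in these values. her7, a core repressor of the clock, had 16.1, 17.4, 16.6 and 17.7 CPM at 16 somites, against 24.4, 19.7, 25.4 and 38.5 CPM at 10 somites (log2 fold change -0.65 ± 0.19, edgeR adjusted p = 0.0354). Its partner her1 gave -0.55 ± 0.19 and did not pass (edgeR adjusted p = 0.0701), although the groups did not overlap, and it passed without 10-somite replicate 4 (-0.54, adjusted p = 0.0246). The oscillating Notch ligand dlc had 140, 129, 148 and 148 CPM at 16 somites, against 199, 207, 197 and 180 CPM at 10 somites (log2 fold change -0.47 ± 0.1, edgeR adjusted p = 0.0082), while the ligand dld had 208, 185, 185 and 193 CPM at 16 somites, against 198, 190, 179 and 196 CPM at 10 somites and did not pass. In the anterior presomitic and somitic list, 3 of 14 genes were higher (21.4%, where 10.8% of all genes were) and 1 was lower (7.14%). The higher genes were the somite polarity genes tbx18 (log2 fold change 1.41 ± 0.2), uncx (1.18 ± 0.24) and uncx4.1 (0.48 ± 0.13). The boundary gene epha4a was lower (-0.39 ± 0.12). Without 10-somite replicate 4, 4 of 14 genes of this list were higher and 4 lower (28.6% each), where 24.3% and 23.0% of all genes were.

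Genes that pattern the blastula and gastrula were lower at 16 somites in many cases. Of 43 tested, 17 were lower (39.5%), 3 were higher and the median log2 fold change was -0.54. Without 10-somite replicate 4, 19 were lower (44.2%, where 23.0% of all genes were, against 8.27% in the fit of all 8 libraries). The BMP regulator szl (Sizzled) had 1.66, 0.549, 2.0 and 2.16 CPM at 16 somites, against 8.21, 6.96, 7.43 and 7.03 CPM at 10 somites (log2 fold change -2.16 ± 0.29, edgeR adjusted p = 0.00099). chd (Chordin), the BMP antagonist of the organizer, had 24.4, 23.3, 35.0 and 33.6 CPM at 16 somites, against 73.9, 55.6, 76.9 and 74.2 CPM at 10 somites (log2 fold change -1.26 ± 0.17, edgeR adjusted p = 0.000871). The ligand bmp7a and the Wnt antagonist frzb fell by 1.53 (SE 0.19) and 1.74 (SE 0.26) on the log2 scale. Among 29 germ line and maternal genes, 8 were lower (27.6%) and 2 higher, and without 10-somite replicate 4, where the list's mean log2(CPM + 1) was 3.97 against 3.46 to 3.57 in the other 3, 9 of 30 were lower, where 23.0% of all genes were.

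Several feedback inhibitors of FGF signaling fell. Of 28 FGF pathway and ERK target genes, 8 were lower (28.6%, where 8.27% of all genes were) and 1 was higher. dusp2, a phosphatase of MAP kinases, had 0.832, 0.687, 0.953 and 0.866 CPM at 16 somites, against 6.96, 5.97, 8.52 and 7.03 CPM at 10 somites (log2 fold change -3.04 ± 0.22, edgeR adjusted p = 6.59e-05), which placed it among the 3 genes past a log2 fold change of -3. spry4, a Sprouty inhibitor, had 81.5, 78.5, 95.5 and 89.7 CPM at 16 somites, against 145, 138, 141 and 128 CPM at 10 somites (log2 fold change -0.68 ± 0.1, edgeR adjusted p = 0.00179). The groups were apart for both genes. spry2, dusp4 and the ligand fgf8a also fell, by 0.54, 0.86 and 0.66 on the log2 scale. dusp6, an ERK phosphatase often used as a readout of FGF signaling, had 253, 248, 261 and 245 CPM at 16 somites, against 289, 250, 257 and 337 CPM at 10 somites, and did not pass.

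The Hox genes differed in direction by paralogue group. Vertebrate Hox genes are numbered by paralogue group, and in textbook accounts lower numbers are used earlier and more anteriorly than higher numbers. Among 44 Hox genes tested, 7 of 10 in groups 11 to 13 were higher and none was lower, with a median log2 fold change of 1.58. In groups 1 to 8, 2 of 25 were higher and 8 lower, with a median of -0.4. Of all genes tested, 10.8% were higher and 8.27% lower. Groups 9 to 10 had 1 lower gene of 9 and a median of 0.02. hoxc12a had 14.2, 9.89, 7.53 and 7.47 CPM at 16 somites, against 0.497, 0.746, 0.656 and 0.521 CPM at 10 somites (log2 fold change 3.91 ± 0.35, edgeR adjusted p = 0.000107). hoxc11b had 9.28, 9.47, 7.43 and 7.14 CPM at 16 somites, against 0.995, 0.746, 0.874 and 0.521 CPM at 10 somites (log2 fold change 3.38 ± 0.25, edgeR adjusted p = 6.59e-05). hoxc12b and hoxd13a, the other posterior genes with the largest changes, rose by 4.1 ± 0.5 and 2.89 ± 0.33 from means under 1 CPM at 10 somites.

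Within group 8 the direction differed between clusters, where hoxb8a and hoxb8b rose by 1.27 ± 0.19 and 0.85 ± 0.17 and hoxc8a gave -0.18 ± 0.11 and did not pass (without 10-somite replicate 4, -0.24 with an adjusted p of 0.0328). For 4 of the 8 lower genes of groups 1 to 8, namely hoxc4a, hoxc5a, hoxb6b and hoxc6a, the groups overlapped through 10-somite replicate 4. hoxc6a had 23.3, 26.9, 30.1 and 29.4 CPM at 16 somites, against 78.1, 84.1, 76.3 and 24.7 CPM at 10 somites (log2 fold change -1.27 ± 0.3, edgeR adjusted p = 0.0166). hoxc5a had 11.4, 10.7, 18.2 and 14.5 CPM at 16 somites, against 51.0, 56.6, 54.0 and 8.85 CPM at 10 somites (log2 fold change -1.64 ± 0.43, edgeR adjusted p = 0.0249). In both genes 3 of 4 libraries at 10 somites lay well above all 16-somite libraries and the fourth lay within or below their range. hoxc4a had 8.33 CPM in that library and 31.7 to 34.9 CPM in the other 3, and hoxb6b had 16.7 CPM and 37.4 to 45.1 CPM. Without that library 16 of 25 genes in groups 1 to 8 were lower, 3 were higher and 8 of 10 in groups 11 to 13 were higher. In that fit 23.0% of all genes were lower and 24.3% higher. The hindbrain gene hoxb1a had 25.3, 22.7, 25.6 and 27.3 CPM at 16 somites, against between 26.1 and 42.9 CPM at 10 somites, and did not pass.

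**Figure D3:**
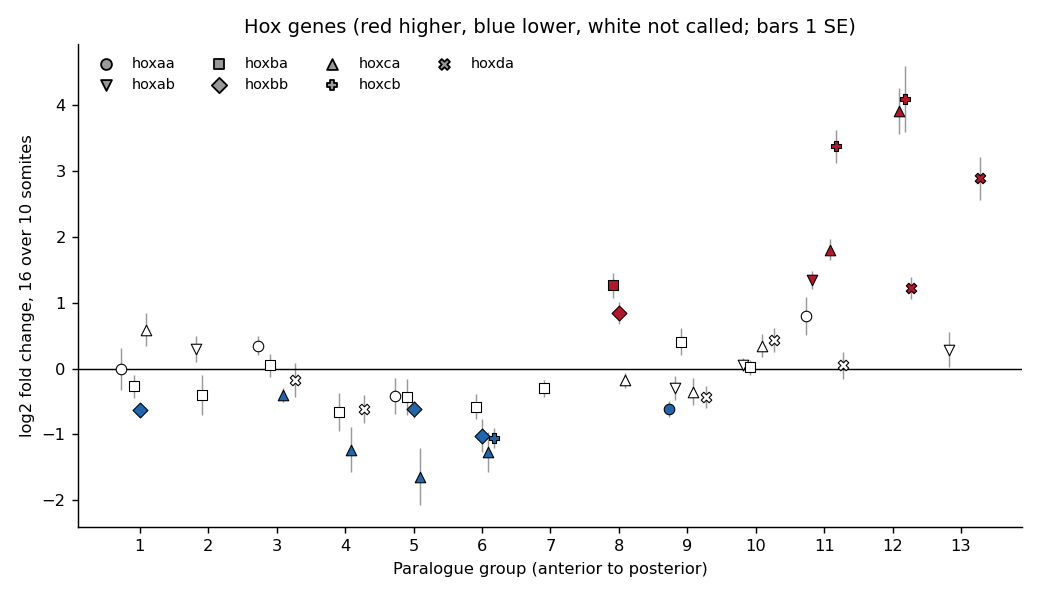
Log2 fold change of 16 over 10 somites for 44 Hox genes against paralogue group, with marker shape for the cluster. Red marks genes called higher, blue genes called lower and white genes not called. Bars are 1 SE, derived from the F statistic of edgeR's test. Of groups 11 to 13, 7 of 10 genes are higher, and the lowest values fall in groups 4 to 6 (down to -1.64 for hoxc5a).

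Many genes of blood and vessels rose. Of 35 erythroid genes tested, 16 were higher (45.7%) and 1 was lower, with a median log2 fold change of 0.5. The embryonic globin hbbe3 had 42.6, 34.9, 16.9 and 19.0 CPM at 16 somites, against 0.497, 1.49, 0.656 and 0.781 CPM at 10 somites (log2 fold change 4.85 ± 0.45, edgeR adjusted p = 0.000132). The globin hbae1 had no read at 10 somites and was at least 25.4-fold higher at 16 somites against the floor of 3 reads. Globin genes lie in clusters of close copies, so how reads divide among them is uncertain. sptb, the spectrin of the red cell membrane, had 60.3, 58.1, 33.4 and 37.3 CPM at 16 somites, against 2.74, 3.86, 1.75 and 1.56 CPM at 10 somites (log2 fold change 4.15 ± 0.31, edgeR adjusted p = 6.59e-05). alas2, the first enzyme of erythroid heme synthesis, rose by 2.59 ± 0.25. The erythroid regulators gata1a and tal1 did not pass. gata1a had 10.5, 8.38, 9.72 and 11.7 CPM at 16 somites, against 8.7, 7.96, 5.9 and 5.99 CPM at 10 somites, and tal1 gave a log2 fold change of 0.1 ± 0.1. Other regulators in the list are not described here.

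Of 35 endothelial genes, 16 were higher (45.7%, where 10.8% of all genes were) and 2 lower (5.71%). cdh5, the cadherin of endothelial junctions, had 18.1, 15.0, 11.2 and 10.2 CPM at 16 somites, against 3.23, 4.48, 2.4 and 3.12 CPM at 10 somites (log2 fold change 1.98 ± 0.26, edgeR adjusted p = 0.000807). The VEGF receptor kdrl rose by 1.02 ± 0.15 and the receptor kinase tie1 by 1.51 ± 0.26. gata2a, also active in the early non-neural ectoderm, fell, with 22.5, 20.5, 29.9 and 25.2 CPM at 16 somites, against 60.4, 49.0, 52.2 and 46.3 CPM at 10 somites (log2 fold change -1.08 ± 0.14, edgeR adjusted p = 0.000882). In the myeloid list 1 of 9 genes was higher (11.1%) and 3 were lower (33.3%, where 8.27% of all genes were). Without 10-somite replicate 4, 4 of 10 were higher and 4 lower, where 24.3% and 23.0% of all genes were. With all 8 libraries the higher gene was spi1b, the master factor of the lineage (1.15 ± 0.24). The lower genes included the actin-bundling gene lcp1 under both of its identifiers. Reads could be shared between these identifiers, so they are not separate evidence, although both are among the 3 lower genes counted.

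Of 29 cardiac genes, 10 were higher (34.5%, where 10.8% of all genes were) and 4 lower (13.8%, where 8.27% were). Without 10-somite replicate 4, 45.2% were higher and 22.6% lower, where 24.3% and 23.0% of all genes were, so the lower share was near that of all genes. The list shares actn2, csrp3 and ttna with the sarcomere list and mef2ca and mef2cb with the myogenic list. Whole embryos do not separate heart from somite muscle, so the higher share cannot be assigned to the heart alone. vmhc, the ventricular myosin, had between 19.6 and 27.3 CPM at 16 somites (mean 23.7 ± 4.15, SD, n = 4), against 2.74, 1.49, 1.09 and 0.26 CPM at 10 somites (log2 fold change 4.05 ± 0.33, edgeR adjusted p = 9.98e-05). Cardiac troponin T, tnnt2a, rose by 2.28 ± 0.41 (2.92 without 10-somite replicate 2). The transcription factors gata4, gata5 and gata6, which specify cardiac mesoderm and endoderm, fell by 0.67, 0.66 and 0.85 on the log2 scale, each past the threshold, and nkx2.5 and isl1 did not pass (0.65 ± 0.3 and -0.02 ± 0.12), while mef2ca of the same list rose, as given above. In the left-right list 3 of 19 genes were higher (15.8%, where 10.8% of all genes were) and 2 lower (10.5%, where 8.27% were). Without 10-somite replicate 4, 21.1% were higher and 26.3% lower, where 24.3% and 23.0% of all genes were, so the list lay near the shares of all genes. The nodal ligand spaw and its antagonist lft1, which set the left side of the embryo, rose by 1.58 ± 0.36 and 1.18 ± 0.35. The groups overlapped for lft1, at 10.3 CPM in the lowest 16-somite library and 13.3 CPM in the highest 10-somite library.

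In the list of the pronephros, the embryonic kidney, 7 of 32 genes were higher (21.9%, where 10.8% of all genes were). The lower genes were 6 (18.8%, where 8.27% of all genes were). Without 10-somite replicate 4, 30.3% were higher and 33.3% lower, where 24.3% and 23.0% of all genes were. slc12a3, the sodium chloride transporter of the distal tubule, had 23.4, 22.8, 10.4 and 13.0 CPM at 16 somites, against 0.0, 0.0, 0.219 and 0.0 CPM at 10 somites, where it was covered by 1 read in all. It was 1 of 3 genes under 0.5 CPM in every 10-somite library and at least 5 CPM in every 16-somite library, the others being myhz1.3 and he2. The sodium pump subunit atp1a1a.4 and the cadherin cdh17, both of kidney epithelium, rose by 3.92 ± 0.34 and 1.66 ± 0.17. The early kidney factors lhx1a, pax8 and pax2a changed by -1.27, -1.09 and -0.73 on the log2 scale. pax8 had 5.23, 7.69, 6.86 and 7.9 CPM at 16 somites, against between 12.8 and 17.2 CPM at 10 somites (log2 fold change -1.09 ± 0.17, edgeR adjusted p = 0.00202). These factors are also expressed in the brain or ear, and whole embryos do not separate those sources.

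Matrix and notochord genes rose in large numbers. Of 85 matrix genes 38 were higher (44.7%, where 10.8% of all genes were) and 3 lower (3.53%, where 8.27% were). Of 40 notochord and floor plate genes 19 were higher (47.5%) and 4 lower (10.0%, near the share of all genes). Without 10-somite replicate 4, 57.6% of matrix and 62.5% of notochord genes were higher, where 24.3% of all genes were. col1a1a, a chain of type I collagen, had 146, 175, 87.9 and 96.2 CPM at 16 somites, against 13.2, 11.3, 5.46 and 8.07 CPM at 10 somites (log2 fold change 3.72 ± 0.3, edgeR adjusted p = 9.98e-05). col2a1a, the type II collagen of the notochord and its sheath, had 1200, 1280, 1030 and 1040 CPM at 16 somites, against 410, 422, 333 and 282 CPM at 10 somites (log2 fold change 1.65 ± 0.15, edgeR adjusted p = 0.000109). Both were apart in every library. The axial regulators moved less, with shha at 0.51 ± 0.14 (edgeR adjusted p = 0.032) and foxa2 at -0.31 ± 0.21, which did not pass.

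A larger share of neuronal genes than of neural progenitor genes rose. Of 82 proneural and neuronal genes, 42 were higher (51.2%, where 10.8% of all genes were) and 6 lower, with a median log2 fold change of 0.76. Of 31 progenitor genes 10 were higher (32.3%) and 1 lower, with a median of 0.06. inab, an internexin of the neuronal cytoskeleton, had 17.7, 18.8, 10.7 and 10.6 CPM at 16 somites, against 0.746, 0.124, 0.0 and 0.0 CPM at 10 somites (log2 fold change 6.07 ± 0.54, edgeR adjusted p = 0.000105), a log2 fold change that was 7.54 without 10-somite replicate 1. snap25a, a SNARE protein of synaptic vesicle fusion, rose by 3.13 ± 0.39 and slc18a3a, the vesicular acetylcholine transporter, by 3.65 ± 0.49 (4.43 without 10-somite replicate 2). In contrast the proneural factor neurog1 had 24.9, 17.6, 20.4 and 23.3 CPM at 16 somites, against 20.6, 18.8, 20.8 and 15.9 CPM at 10 somites, and the groups overlapped. The early neuronal RNA-binding gene elavl3 and the motor and sensory neuron factor isl1 did not pass either. The progenitor factor sox2 gave 0.14 ± 0.11 and did not pass, whereas gfap and nes, genes of radial glia and progenitor filaments, rose by 1.34 ± 0.11 and 1.67 ± 0.19.

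The largest fall among the named genes was in the eye and forebrain. six7, a homeobox gene of the sine oculis family, had 2.74, 2.33, 3.24 and 2.71 CPM at 16 somites, against 45.3, 41.3, 61.4 and 29.9 CPM at 10 somites (log2 fold change -3.99 ± 0.24, edgeR adjusted p = 4.35e-05). The 16-somite libraries were within a narrow range far below every 10-somite library. rx3, which specifies the eye field, had 7.37, 4.94, 6.39 and 4.98 CPM at 16 somites, against 13.7, 14.2, 22.3 and 35.4 CPM at 10 somites (log2 fold change -1.82 ± 0.31, edgeR adjusted p = 0.00293). The paralogue rx1 rose by 1.2 ± 0.2 where rx2 fell by 0.85 (SE 0.16). dlx2a, a forebrain and pharyngeal crest homeobox gene, rose by 1.6 ± 0.22. The large Maf transcription factor mafa had 81.6, 87.1, 82.1 and 83.4 CPM at 16 somites, against 15.9, 16.3, 8.74 and 7.55 CPM at 10 somites (log2 fold change 2.76 ± 0.22, edgeR adjusted p = 9.98e-05). In all, 15 of 49 forebrain and eye genes were higher (30.6%, where 10.8% of all genes were) and 7 lower (14.3%, where 8.27% were). Without 10-somite replicate 4, 44.0% were higher and 24.0% lower, where 24.3% and 23.0% of all genes were.

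In the midbrain and hindbrain list 8 of 35 genes were higher (22.9%, where 10.8% of all genes were) and 5 lower (14.3%, where 8.27% were). Without 10-somite replicate 4, 12 of 36 were higher (33.3%) and 11 lower (30.6%), where 24.3% and 23.0% of all genes were. eng1b, an Engrailed gene of the midbrain-hindbrain boundary, had 6.42, 6.45, 4.38 and 5.52 CPM at 16 somites, against 0.497, 1.12, 1.09 and 1.56 CPM at 10 somites (log2 fold change 2.38 ± 0.29, edgeR adjusted p = 0.000601). The boundary gene pax2a fell, with 54.7, 51.1, 60.8 and 56.3 CPM at 16 somites, against 102, 102, 99.7 and 66.1 CPM at 10 somites (log2 fold change -0.73 ± 0.15, edgeR adjusted p = 0.00679). eng1b is also in the hedgehog list and pax2a in the pronephros list. Whole embryos do not separate these sources, so neither change can be assigned to the boundary. The rhombomere genes egr2b and mafba did not pass, at -0.53 ± 0.22 and -0.33 ± 0.25, and both passed as lower without 10-somite replicate 4, at -0.69 (adjusted p = 0.00121) and -0.55 (adjusted p = 0.00128).

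Neural crest, which leaves the dorsal neural tube by an epithelial-to-mesenchymal transition (EMT), is the population for which the transgenic line was made. Of 56 crest and EMT genes, 13 were higher (23.2%, where 10.8% of all genes were) and 6 lower (10.7%, where 8.27% were). Without 10-somite replicate 4, 32.1% were higher and 21.4% lower, where 24.3% and 23.0% of all genes were. The crest specifier sox10 had 50.3, 51.9, 58.0 and 56.7 CPM at 16 somites, against 57.4, 54.6, 50.5 and 44.2 CPM at 10 somites, and the groups overlapped. snai1b, whose regulatory sequence drives the transgene, had 8.44, 4.39, 8.67 and 7.25 CPM at 16 somites, against 5.47, 5.1, 6.12 and 7.29 CPM at 10 somites, and did not pass (edgeR adjusted p = 0.404). twist1a, an EMT factor of cranial crest mesenchyme, rose to 33.1, 33.1, 20.1 and 24.1 CPM at 16 somites, against a mean of 12.1 ± 2.63 CPM at 10 somites (SD, n = 4), with a log2 fold change of 1.19 ± 0.21 (edgeR adjusted p = 0.00383). The crest receptor genes ednrab and erbb3b rose by 1.92 ± 0.26 and 1.65 ± 0.32. sox9b fell by 0.82 (SE 0.13), and zeb1a gave -0.02 ± 0.2. Among 17 pigment cell genes 5 were higher (29.4%) and 1 was lower (5.88%). The higher genes included the early pigment lineage factor tfec, at 10.4 ± 1.51 CPM at 16 somites (SD, n = 4) and 3.23, 2.11, 0.656 and 1.3 CPM at 10 somites (log2 fold change 2.48 ± 0.31, edgeR adjusted p = 0.000703).

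Of 39 retinoid genes 8 were higher (20.5%, where 10.8% of all genes were) and 6 lower (15.4%, where 8.27% were). Without 10-somite replicate 4, 12 of 40 were higher and 12 lower, where 24.3% and 23.0% of all genes were. The enzyme that degrades retinoic acid, cyp26a1, had 49.2, 47.4, 46.5 and 40.2 CPM at 16 somites, against 44.8, 41.7, 42.4 and 90.8 CPM at 10 somites. Only replicate 4 at 10 somites was high, and the log2 fold change of -0.25 ± 0.24 did not pass. dhrs3a, dhrs3b and rxrga, a pair of retinaldehyde reductases and a retinoid X receptor, did not pass either, with edgeR adjusted p-values of 0.643, 0.077 and 0.283. The groups did not overlap for dhrs3b, which was lower without 10-somite replicate 4 (-0.34, adjusted p = 0.0327) and by DESeq2 with all 8 libraries (-0.7, adjusted p = 0.0476). aldh1a2, which makes retinoic acid, gave 0.55 ± 0.21 (edgeR adjusted p = 0.0927) and, without 10-somite replicate 4, 0.84 with an adjusted p of 1.16e-05. The carrier genes rbp7b and rbp7a changed in opposite directions (2.34 ± 0.31 and -1.84 ± 0.31).

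Cell cycle genes changed little in the comparison of all 8 libraries, with 3 of 68 DNA replication genes and 2 of 67 mitosis genes higher and none lower, below the 10.8% of all genes. Without 10-somite replicate 4, 26 replication genes were higher (38.2%) and 6 lower (8.82%), and 24 mitosis genes were higher (35.8%) and 10 lower (14.9%), where 24.3% of all genes were higher and 23.0% lower. pcna, the sliding clamp, had 689, 682, 723 and 640 CPM at 16 somites, against 469, 490, 561 and 1020 CPM at 10 somites. At 10 somites 3 of 4 libraries were below all 16-somite libraries, and replicate 4 was above them, and pcna passed without it (0.43, adjusted p = 0.000404). For ribosomal protein genes, the mean log2(CPM + 1) was 9.53 to 9.72 at 16 somites, a range that 10-somite replicate 4 (9.68) fell within. Of 79, 21 were higher (26.6%) and none lower, and without that library 76 were higher. Of 69 respiratory chain genes 13 were higher and none lower, and 63 were higher without it. Of 60 epidermal genes 16 were higher and 4 lower, and 40 were higher and 7 lower without it. Whether the state of that library bears on these differences was not tested beyond leaving it out.

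**Figure D4:**
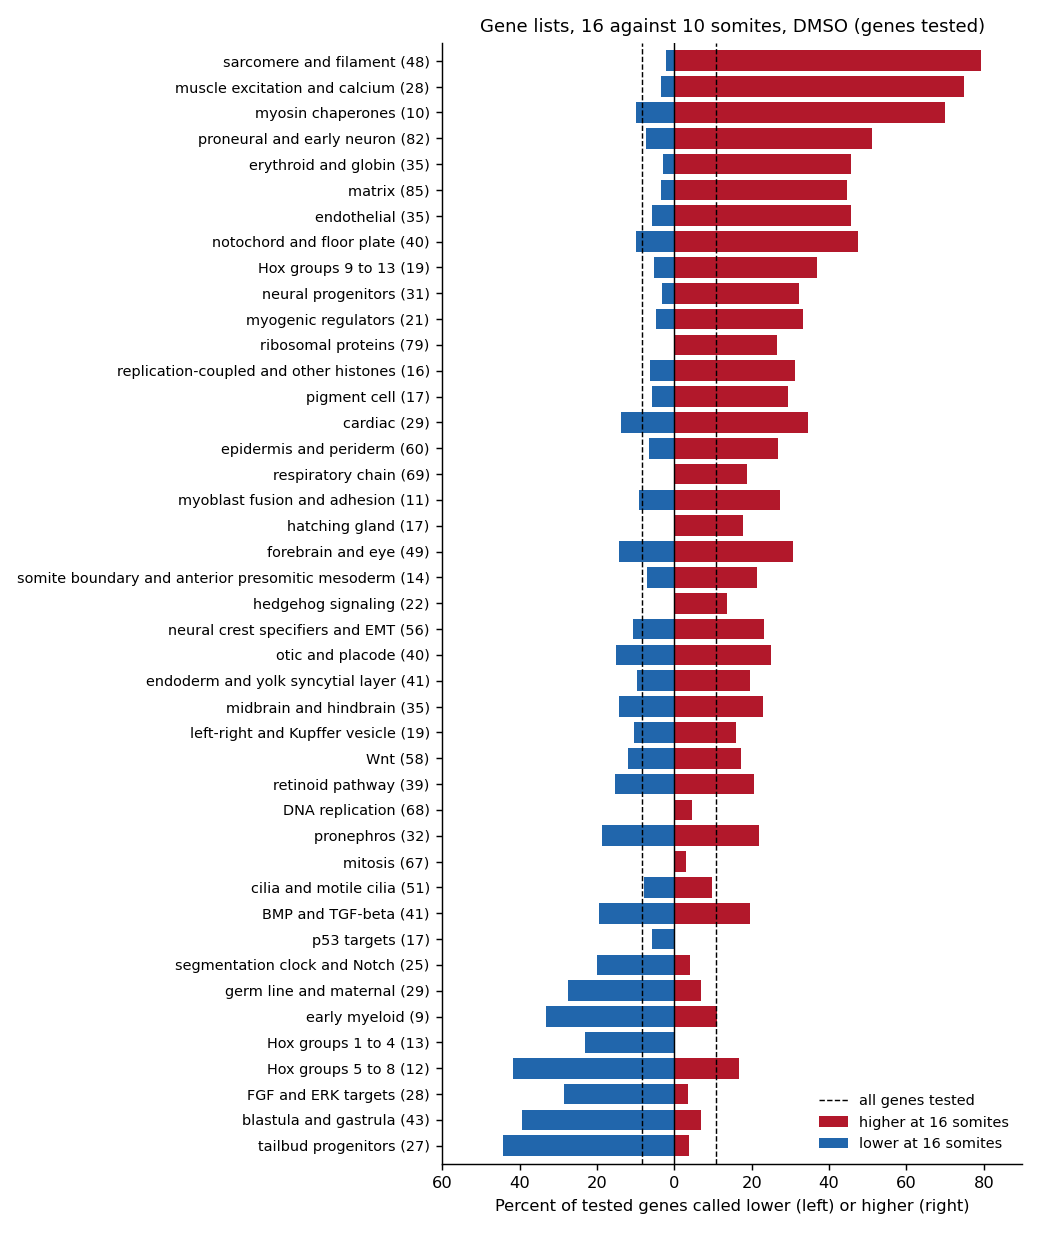
Percent of tested genes in each of 43 lists called higher at 16 somites (red, to the right) or lower (blue, to the left), with the number of genes tested in parentheses and dashed lines at the share of all genes tested, 10.8% higher and 8.27% lower. Sarcomere (79.2% higher) and muscle excitation (75.0%) genes stand at the top and tailbud genes (44.4% lower) at the bottom.

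By the rule on size alone, other genes with large rises were he2, a hatching enzyme gene with no read at 10 somites and at least 78.6-fold higher at 16 somites against the floor of 3 reads, and the glucose transporter slc2a1a, with 9.63, 6.59, 5.43 and 6.82 CPM at 16 somites, against 0.0, 0.124, 0.0 and 0.521 CPM at 10 somites (log2 fold change 5.43 ± 0.52, edgeR adjusted p = 0.000155), where 10-somite replicate 4 held 2 of the 3 reads at that stage and the log2 fold change of slc2a1a was 6.53 without it. Among the lowest was hsd3b2, which encodes a steroid dehydrogenase, with 11.2, 9.75, 9.43 and 9.31 CPM at 16 somites, against 49.7, 44.8, 50.1 and 73.4 CPM at 10 somites (log2 fold change -2.45 ± 0.17, edgeR adjusted p = 6.59e-05). In absolute level the largest losses included the chromatin protein gene hmga1a, at 6650, 6530, 7230 and 7270 CPM at 16 somites, against 9140, 9190, 9930 and 10500 CPM at 10 somites (log2 fold change -0.49 ± 0.11, edgeR adjusted p = 0.0104), and the cold-inducible RNA-binding gene cirbp, which fell by 0.65 (SE 0.11). The largest gains included the epidermal keratin krt4, with 11700, 11700, 10100 and 9910 CPM at 16 somites, against 6820, 6780, 6290 and 10000 CPM at 10 somites, where replicate 4 reached the 16-somite range (log2 fold change 0.54 ± 0.16, edgeR adjusted p = 0.0404).

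The 8 libraries of embryos treated with TP-0903, a kinase inhibitor, at the same stages share no library with those above, and the same comparison was made among them. There, 1262 genes were higher at 16 somites (7.94%) and 653 were lower (4.11%) of 15898 tested. Of the 2988 genes called in DMSO and tested with TP-0903, 99.0% had the same sign, against 84.4% of all 15761 genes tested in both. The genes called in the same direction in both were 48.7% of the DMSO calls and 77.4% of the TP-0903 calls. The sarcomere list had a median log2 fold change of 1.55 with TP-0903 and 1.56 in DMSO, with 38 genes higher in each. Median changes of Hox groups 5 to 8 were 0.21 with TP-0903 and -0.5 in DMSO. Of Hox groups 9 to 13, 1 of 15 genes tested was higher and 2 were lower with TP-0903 (median -0.08), and 7 of 19 were higher and 1 lower in DMSO (median 0.41). The sets differ, since hoxc12a, hoxc12b and hoxd13a, all higher in DMSO, were not tested in the TP-0903 libraries alone. In the fit of all 16 libraries, their stage changes with TP-0903 less those in DMSO were -3.48, -2.82 and -1.65 (log2). None of these differences passed. No gene passed the test of the difference between the stage changes by edgeR, with 343 genes at an unadjusted p under 0.05 of 16283 tested, and DESeq2 called 7.

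**Figure D5:**
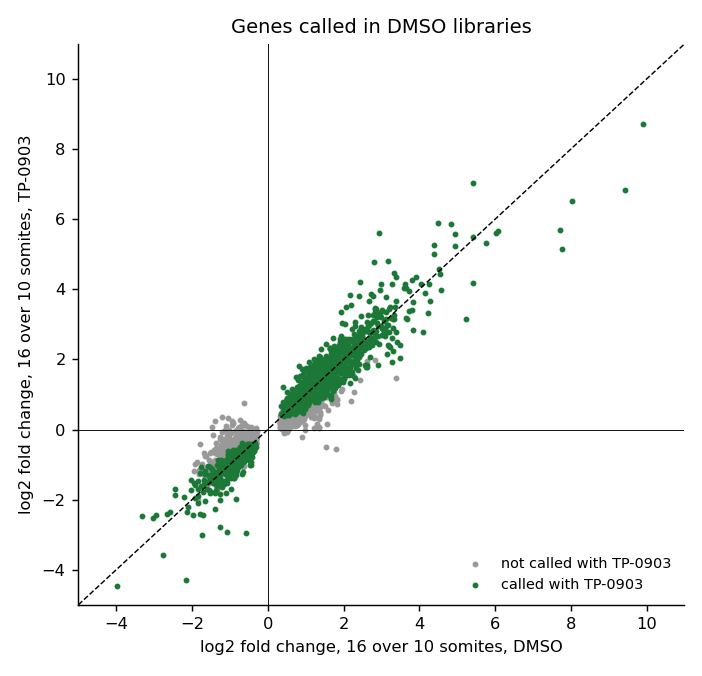
Log2 fold change of 16 over 10 somites with TP-0903 (y axis) against that in DMSO (x axis) for the genes called in DMSO and tested in both, 1 point per gene, green where also called with TP-0903, with the line of equality dashed. The points follow the line, and 99.0% of the 2988 genes have the same sign.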

How the data were processed

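RNA from whole embryos was prepared by the study with a stranded, ribosome-depleted total RNA kit and sequenced as single reads of 50 cycles. Per the labels, reads were aligned with Novoalign 2.08.03, and per the study's methods they were counted over Ensembl genes of the zv9 build with USeq. The authors deposited raw counts per gene, and FPKM values that scale them by gene length and library total. The 1 h and 4 h tables each listed 16361 genes and were joined by identifier. A reference table named 110 genes that had no symbol in the deposited tables, and 340 genes were left without a symbol. The authors' own fold changes and p-values, made with DESeq2 1.4.5 between treatments, were not used, nor was the 8 h table.

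Counts were filtered with filterByExpr, scaled by TMM (factors of 0.939 to 1.05) and tested with edgeR 4.0.16 (quasi-likelihood, R 4.3.3, limma 3.58.1) with Benjamini-Hochberg adjustment over all genes tested at 0.05. DESeq2 1.42.0 served as an alternative. Fold changes are log2 of 16 over 10 somites, ± SE, and CPM values are TMM-scaled. Each SE is the absolute log2 fold change divided by the square root of the F statistic of edgeR's test. On simulated data drawn from these DMSO libraries (15822 genes in the fit), 80% of genes changed 2-fold, 12% of genes changed 1.5-fold and 100% of genes changed 4-fold were recovered, with 8.18% of 159 calls false. The simulation changed 50 genes at each fold, all above a minimum level, and held no library that stood apart. Far more genes (3042) were called in the real data, so these rates are not the recovery of that comparison. The p-values measure the spread between the 4 libraries of a group. Counting error sets a floor of 3 reads over a group for genes without reads. Folds against this floor use reads pooled over each group, so they do not take in the spread between libraries.

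The members and gene lists were chosen with earlier results of these data known. Genes named in the text are members of 43 lists (called members of at least 1 mean CPM, ordered by fold change, and defining members), the 10 highest and 10 lowest fold changes among called genes with at least 5 CPM and no overlap, the 10 largest gains and losses in mean CPM, and genes the study names. Some genes are not reported here. Replicate numbers are shared between groups, but the labels do not tie them to a common batch.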

Additional observations from a re-analysis of the deposited data

Results flagged for a closer look

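In 90 groups of 4 libraries, made of the totals, the mean log2(CPM + 1) over all genes and that of each gene list at both stages, 13 held a library whose gap to its nearest neighbour, divided by the range, was above Dixon's 95% critical value, where chance gives about 1 in 20 (4.5). The groups summarize the same 8 libraries and some genes are in several lists. The groups are therefore not independent, and 13 cannot be judged against 4.5. In 8 of the 13 the library was 10-somite replicate 4. It was highest for early myeloid genes (4.05 against 3.43 to 3.45 in the other 3, a ratio of 0.961), epidermis and periderm (6.42 against 5.79 to 5.86, 0.884), mitosis (6.5 against 6.19 to 6.21, 0.938), ribosomal proteins (9.68 against 8.84 to 8.91, 0.922) and the respiratory chain (5.69 against 4.74 to 4.87, 0.861). It was lowest for Hox groups 1 to 4 (4.28 against 4.99 to 5.1, 0.87), Hox groups 5 to 8 (4.1 against 4.85 to 4.95, 0.876) and cilia genes (3.36 against 3.54 to 3.58, 0.838).

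The other 5 were spread over libraries. In total reads, 10-somite replicate 2 was highest (7663030 against 3879310 to 4376883, 0.868). At 16 somites replicate 3 was lowest for early myeloid genes (3.28 against 3.5 to 3.54, 0.836) and for left-right and Kupffer vesicle genes (3.72 against 3.81 to 3.83, 0.843), and replicate 1 was highest for endoderm and yolk syncytial layer genes (5.78 against 5.31 to 5.38, 0.849) and for neural crest and EMT genes (5.46 against 5.4 to 5.41, 0.869). The cause of these differences was not tested.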

How the results depend on the processing

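The number of genes that differed in DMSO was 3042, and it stayed within 1.5 times of that under other scalings (3032 with DESeq2 size factors, 3016 with the upper quartile), other filters (3132 and 3131), robust dispersion (3014), limma voom (3125), DESeq2 (3791), a fit of all 16 libraries (2938) and thinning to the smallest total (2209). It was 1291 at an adjusted p of 0.01 and 1221 with a log2 fold change of at least 1. With the replicate block it was 1826. Deviations from the group means correlated at -0.15, 0.03, 0.14 and -0.15 between libraries of the same number, 1 to 4. Between libraries of different numbers the values ranged from -0.16 to 0.24. For 16-somite replicate 3, 0.14 lay above its values with the other numbers (-0.09 to 0.04). With so few libraries, these values cannot tell whether the numbers mark a shared batch. Leaving out 1 library gave 1720 to 7627 genes, the highest without 10-somite replicate 4. With DESeq2, a choice made after seeing the data, 6592 genes differed without that library. With TP-0903 the count was 1915, 946 with the replicate block and 1072 to 2800 without 1 library. The difference between the treatments gave 0 genes with edgeR under each setting, the replicate block and left-out libraries included, and 7 with DESeq2. Among the genes named, signs turned in the absence of 10-somite replicate 4 for cyp26a1 (0.1 with edgeR and with DESeq2, over a range of -0.37 to 0.1 on leaving out 1 library) and dhrs3a (0.24 and 0.23, over -0.43 to 0.24), neither of which passed without that library. Of 135 results for named genes, 8 to 16 lost their call on leaving out 1 library other than 10-somite replicate 4, the most without 10-somite replicate 3, and 12 with the replicate block, whereas 9 passed newly without 10-somite replicate 4. In the simulation at these depths, 12% of genes changed 1.5-fold were recovered. It changed far fewer genes than were called here and held no library that stood apart, so this share is not the recovery of the comparison. No promoter sequence was analysed here.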
